A study of Mus musculus with 8 samples.

Results

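The 10 genes described here encode antimicrobial and granule proteins of neutrophils: S100a8, S100a9, Lcn2, Slpi, Wfdc17, Stfa2l1, Retnlg, Asprv1, Ltf and Ngp. They were taken by symbol from the 27923 genes of single-cell UMI tables, and all 10 were present in each of the 8 tables. Their UMIs (unique molecular identifiers, each standing for 1 captured transcript) were summed per library over cells gated as neutrophils. A cell was called a neutrophil when Csf3r, G0s2, Clec4d and Cxcr2 together had at least 2 UMIs and C1qa, C1qb and C1qc had none. Of 4343 barcodes, 3894 had at least 200 detected genes, and 1544 of these were neutrophils by this rule. None of the 10 genes was used in the gate. The study placed cells with Csf3r and G0s2 in a cluster it called Monocytes or Macrophages and named no separate neutrophil cluster, so neutrophil stands here for a cell that passes this gate.

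The study tagged live cells in chosen parts of a tissue by shining light on calcein NVOC, a caged dye that becomes fluorescent where it is illuminated, and then sorted and sequenced them by Seq-Well, a nanowell-based single-cell RNA method. The tissue was lung adenocarcinoma of KP mice, chimeric C57BL/6 animals carrying p53 fl/fl in the tissue derived from the injected stem cells. At 12 weeks of age adenovirus carrying Cre recombinase under the surfactant protein C promoter, which is active in alveolar type II cells, was given into the trachea, and tumors were taken 16 weeks later, so all groups share the changes that Cre makes in the tumor cells, the loss of p53 among them. Tumor 1 and Tumor 2 came from 1 mouse each. In each tumor the Healthy/Tumor Border group was 1 library of photoactivated, sorted cells, and the Whole Tumor group was 3 Seq-Well arrays of the non-photoactivated population. The arrays of a tumor are technical replicates, so every p-value below measures the spread between arrays and not between mice, and a tumor cannot be told apart from the mouse that bore it. The 2 mice were a male and a female by the study's description, so a difference between tumors cannot be told apart from one of sex either.

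A neutrophil fills its granules in the order in which it matures. Primary granule proteins such as myeloperoxidase are made at the promyelocyte stage, secondary granule proteins such as lactoferrin, neutrophilic granule protein, cathelicidin and lipocalin 2 at the myelocyte stage under the factor C/EBP-epsilon, and tertiary granule gelatinases later, while the mature cell that leaves the marrow has largely stopped transcribing the first of these sets. The cytosol of the mature cell is packed with calprotectin, the dimer of S100A8 and S100A9 that withholds zinc and manganese from microbes and signals through TLR4 and RAGE. In tumors S100a8 and S100a9 serve as markers of neutrophils and related myeloid cells.

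Regulatory sequence bears on the granule members, since C/EBP factors act at their promoters. Promoter windows running from 250 bases before to 50 bases after the start of transcription were taken from RefSeq (GRCm38.p6), which held all 10 members. The letters TTNNGCAA, a core of the kind C/EBP factors bind, stood on either strand in 6 of the 10 windows (S100a9, Lcn2, Slpi, Retnlg, Ltf and Ngp) and in 10.8% of all 32851 promoter windows of that length. The letters GAGGAA, a core of the kind PU.1 and other ETS factors bind, stood in 6 of the 10 and in 28.3% of all windows. The windows of 4 members are printed 5′ to 3′ on the gene's strand because S100a9 is the most widely detected member, and Lcn2, Ltf and Ngp are the secondary granule genes; capitals mark TTNNGCAA on either strand. The windows are chr3:90695672-90695971 on the minus strand for S100a9, chr2:32387690-32387989 on the minus strand for Lcn2, chr9:111019042-111019341 on the plus strand for Ltf and chr9:110419558-110419857 on the plus strand for Ngp.
S100a9: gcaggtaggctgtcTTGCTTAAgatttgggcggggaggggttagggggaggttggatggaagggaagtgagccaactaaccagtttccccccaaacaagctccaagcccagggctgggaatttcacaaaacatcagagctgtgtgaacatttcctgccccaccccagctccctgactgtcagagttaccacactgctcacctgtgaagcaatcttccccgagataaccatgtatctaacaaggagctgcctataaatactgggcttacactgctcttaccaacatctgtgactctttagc
Lcn2: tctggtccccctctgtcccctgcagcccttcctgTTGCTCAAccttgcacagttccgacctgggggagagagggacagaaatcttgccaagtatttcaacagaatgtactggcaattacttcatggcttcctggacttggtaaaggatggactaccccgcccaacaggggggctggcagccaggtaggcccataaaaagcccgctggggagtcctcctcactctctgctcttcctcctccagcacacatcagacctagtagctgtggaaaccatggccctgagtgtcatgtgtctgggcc
Ltf: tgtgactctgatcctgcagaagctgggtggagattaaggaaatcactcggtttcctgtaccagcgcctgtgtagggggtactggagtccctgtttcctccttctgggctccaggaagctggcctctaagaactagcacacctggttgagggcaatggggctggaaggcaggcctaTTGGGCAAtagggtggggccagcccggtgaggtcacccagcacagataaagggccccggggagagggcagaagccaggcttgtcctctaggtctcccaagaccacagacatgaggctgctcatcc
Ngp: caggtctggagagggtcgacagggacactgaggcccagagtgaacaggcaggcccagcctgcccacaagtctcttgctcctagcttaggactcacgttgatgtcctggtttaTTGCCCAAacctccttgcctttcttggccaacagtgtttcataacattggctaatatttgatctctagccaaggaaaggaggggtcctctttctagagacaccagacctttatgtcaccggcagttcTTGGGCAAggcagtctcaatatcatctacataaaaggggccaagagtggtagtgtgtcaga

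Ngp held these letters at 2 places and the others printed at 1. The window of S100a8, the partner of S100a9, held none. A match says only that the letters are present, and binding was not measured. By the GENCODE vM21 annotation of the same build, S100a8 (chr3:90668978-90670035, plus strand) and S100a9 (chr3:90692632-90695721, minus strand) lie 22.6 kb apart, and Ngp (chr9:110419747-110423012) and Ltf (chr9:111019271-111042767) lie 596.3 kb apart on the plus strand of chromosome 9. The other members stand on separate stretches: Lcn2 at chr2:32384633-32388252 and Slpi at chr2:164354070-164389095 (both minus strand), Wfdc17 at chr11:83703991-83706268, Stfa2l1 at chr16:36156811-36161953, Retnlg at chr16:48872621-48874496 and Asprv1 at chr6:86628164-86629710 (all plus strand). Stfa2l1 belongs to a cluster of near-identical stefin genes, so reads may be split between copies and its counts are less certain than the others.

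The 8 libraries held 405627 to 2029200 UMIs, and the neutrophils 84576 to 1018328 UMIs in 96 to 393 cells. Median depth was 1895 to 2617 UMIs per neutrophil in 7 libraries and 616 in the second Whole Tumor array of Tumor 2, so shares of cells with a UMI are also given after thinning every cell to 500 UMIs. Neutrophils made up 63.4% of the border cells and 32.5% to 51.4% of the Whole Tumor cells in Tumor 1, against 19.2% and 29.3% to 37.8% in Tumor 2. The 9 neutrophil markers used neither in the gate nor as members summed to 28.5 to 36.0 of every 10000 UMIs in the gated cells of the Tumor 1 arrays and 25.7 at its border, to 73.6 to 80.3 in the Tumor 2 arrays and 51.0 at its border, and to 3.53 in C1q macrophages. The defining granulocyte marker Ly6g had 3 UMIs in all gated neutrophils, and the 8 macrophage and monocyte markers summed to 5.50 to 41.9 of 10000, against 469 in C1q macrophages. Markers of lymphocytes and of eosinophils, basophils and mast cells were at 0 to 12 UMIs each in them, with Cd3e, Ms4a2 and Fcer1a at 0 and the T cell gene Cd3d at 12, and 173 of the 1544 also passed another class's gate. All 10 barcodes found in more than 1 library resembled the amplification primer. Inside all 8 tables the cells are named with a tumor number opposite to that of the labels, and the labels are followed throughout.

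S100a8, S100a9, Retnlg, Stfa2l1 and Asprv1 had nearly all their UMIs in neutrophils. Ltf and Ngp had smaller shares there, and Lcn2, Wfdc17 and Slpi were shared with epithelium or macrophages. S100a8 and S100a9, the calprotectin subunits, had 93.0% and 90.8% of all their UMIs in neutrophils. The share was 98.2% for Retnlg (resistin-like gamma, a secreted protein of marrow and blood neutrophils), 97.9% for Stfa2l1 (a stefin, an inhibitor of cysteine cathepsins) and 95.2% for Asprv1 (a retroviral-type aspartic protease). Outside the gate S100a9 was still found in 17.3% of the cells that had both neutrophil gate genes and C1q, in 12.0% of surfactant-low epithelial cells and in 20.1% of ungated cells, whereas Stfa2l1 had 0 UMIs in every other class defined by a gate and 4 UMIs in ungated cells. Ltf (lactoferrin, which binds iron) had 84.5% of its UMIs in neutrophils, Lcn2 (lipocalin 2, which captures bacterial siderophores) 76.7%, Ngp (neutrophilic granule protein) 62.4%, Wfdc17 (a WAP-domain protein of myeloid cells) 54.4% and Slpi (secretory leukocyte peptidase inhibitor, a WAP-domain inhibitor of neutrophil elastase) 48.6%. Neutrophils were 1544 of the 3894 cells, so the shares of Wfdc17 and Slpi alone do not show that neutrophils are richer in them.

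A single Chi3l3/Ear cell held 77 Ltf and 78 Ngp UMIs, and without it the neutrophils had 90.7% of the Ltf and 91.6% of the Ngp UMIs. The classes that shared the other members differed by gene. Surfactant-high epithelial cells (40 cells) had Lcn2 at 1000.1 CPM (counts of UMIs of the gene per 1000000 UMIs of the class) with a UMI in 47.5% of cells, beside 355 CPM and 19.6% in neutrophils, both pooled over the tumors. In Tumor 1 these epithelial cells were at 1115 CPM (10 of 24 cells) and neutrophils at 223 CPM (12.2% of cells). In Tumor 2 they were at 703 CPM (9 of 16 cells, 33 UMIs) and neutrophils at 677 CPM (33.0%), which lies within the epithelial counting interval of 484 to 987. Slpi, pooled over the tumors, was at 1526 CPM in the 133 cells that carried the neutrophil gate genes together with C1q, which held 36.6% of its UMIs. That class was at 2475 CPM in Tumor 1 and 93.4 CPM in Tumor 2, against 288 and 873 in neutrophils, so the order turned between the tumors, and its median depth of 6167 UMIs was above the 2215 of neutrophils. Wfdc17 was at 280 CPM in the C1q macrophages of Tumor 2, which held 108 of the 115, and at 281 in its Chi3l3/Ear macrophages, beside 631 in its neutrophils and 152 in those of Tumor 1. In cells with both sets of genes it was at 502 CPM in Tumor 1 and 253 in Tumor 2. As a measure of free RNA, S100a9 had a UMI in 3.23% of B cells (median 2072 UMIs), in 0 of 34 T or NK cells (median 2598 UMIs), in 4.88% of dendritic cells, 6.06% of fibroblasts and 7.14% of endothelial cells, against 69.9% of neutrophils. Ungated cells (median 522 UMIs) had S100a9 at 1471 CPM and a UMI in 20.1% of cells.

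**Figure D1:**
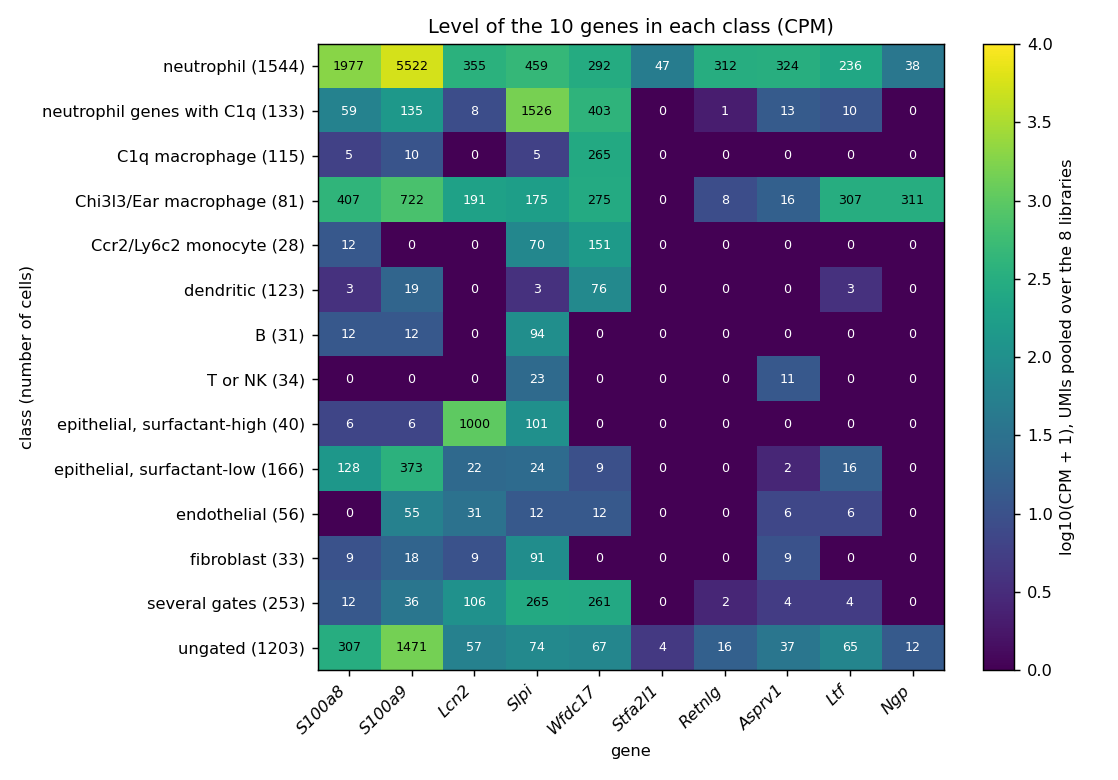
Level of each member in 14 classes of cells, in CPM over the UMIs summed per class across the 8 libraries. The S100a8, S100a9, Stfa2l1, Retnlg and Asprv1 levels are highest in neutrophils, while Lcn2 pooled over the tumors is highest in surfactant-high epithelial cells (1000.1 CPM; in Tumor 2 alone 703 CPM beside 677 in neutrophils) and Slpi in cells with neutrophil genes and C1q (1526 CPM), an order that for Slpi holds in Tumor 1 and not in Tumor 2.

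The difference between neutrophils and macrophages was tested within libraries, with library as a block. Against C1q macrophages, which only the 4 Tumor 2 libraries held in sufficient number, Wfdc17 was the only member with more than 3 UMIs in the macrophages, at 280 CPM against 631 in the neutrophils of Tumor 2. Its log2 fold change was 1.32 ± 0.40 (SE; adjusted p = 0.00828), where 44.7% of the 3078 tested genes were called in either direction, and the call was lost without the first Whole Tumor array (adjusted p = 0.0918) or the second (0.102). The other 9 members entered the test through their neutrophil counts, so their calls are not counted. S100a8, S100a9 and Slpi had 2, 3 and 2 UMIs in the C1q macrophages of Tumor 2 against 4462, 11321 and 1028 in its neutrophils, which is a ratio per UMI of 710 (exact 95% interval 196 to 5865), 1201 (411 to 5825) and 164 (45.2 to 1353), counting error only. Lcn2, Stfa2l1, Retnlg, Asprv1, Ltf and Ngp had 0 UMIs in these macrophages. Against the level of 3 UMIs over the class, Retnlg was at least 125-fold higher in neutrophils and Stfa2l1 at least 14.9-fold higher. The split ran through the WAP pair, with 2 Slpi and 105 Wfdc17 UMIs in these macrophages. Of the 105 Wfdc17 UMIs 35 lay in 1 cell. Over all 115 C1q macrophages a Wfdc17 UMI was found in 31.3% of cells, and in 7.05% after thinning.

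Within neutrophils S100a8, S100a9, Lcn2, Slpi, Wfdc17, Retnlg and Asprv1 were called higher in Tumor 2. Stfa2l1 had 4, 5 and 0 UMIs in the Tumor 1 arrays and entered the test through other libraries. Its call is therefore not counted, and its counts are given below. Ngp, at 1 UMI in the Tumor 1 arrays, could be compared only by its counts. In the Whole Tumor arrays the 10 members took 50.4 to 59.9 of every 10000 neutrophil UMIs in Tumor 1 and 185 to 245 in Tumor 2. At least 1 member was detected in 74.7% to 75.2% of neutrophils in the arrays of Tumor 1 and in 95.8% to 97.0% in those of Tumor 2. For 9 of the 10 members every Tumor 2 array lay above every Tumor 1 array, Ngp among them, an order that 10.8% of the 6951 genes tested had. Ltf overlapped in CPM, and its thinned share was 4.93% to 7.50% in Tumor 1 and 3.37% to 3.76% in Tumor 2. Ngp entered the test through its Tumor 2 counts, so its call is not counted, nor are those of pathway and marker genes named for this comparison that had at most 3 UMIs in the arrays of 1 tumor. Of the members whose calls are counted, the tests called every one but Ltf higher in Tumor 2 and none lower. In this comparison 37.0% of the genes tested were called, 1304 of them higher and 1267 lower. The median log2 fold change of the 10 members was 3.18, Ngp included, beside -0.29 over all genes tested.

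S100a8 was at 1165, 916 and 1183 CPM in the 3 Tumor 1 arrays and at 6014, 4339 and 3842 in those of Tumor 2 (1088 ± 149 against 4732 ± 1138, mean ± SD, n = 3 arrays). S100a9 was at 3940, 3358 and 3645 CPM against 12952, 12167 and 9918 (3648 ± 291 against 11679 ± 1575). Neither subunit's values overlapped between tumors. The log2 fold change was 2.81 ± 0.21 for S100a8 (adjusted p = 2.69e-12) and 2.36 ± 0.18 for S100a9 (adjusted p = 5.71e-12). The ratio of S100a9 to S100a8 UMIs ran from 3.08 to 3.67 in Tumor 1 arrays and from 2.15 to 2.80 in Tumor 2 arrays, and the border libraries were at 2.76 and 3.41. More cells carried them as well: S100a9 had a UMI in 55.3% to 61.0% of Tumor 1 neutrophils and 83.7% to 88.5% of Tumor 2 neutrophils, or 39.1% to 43.4% and 78.0% to 81.3% after thinning.

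Among the secreted protease inhibitors and siderophore binders, Lcn2 was at 161, 190 and 54.2 CPM in Tumor 1 and 830, 662 and 821 in Tumor 2. Slpi was at 202, 222 and 282 CPM against 760, 875 and 1039. Wfdc17 was at 169, 92.7 and 163 CPM against 751, 887 and 696. In all 3 genes the lowest Tumor 2 array was above the highest Tumor 1 array, with log2 fold changes of 3.20 ± 0.28, 2.62 ± 0.22 and 3.16 ± 0.24 (adjusted p = 1.13e-10, 2.30e-11 and 2.69e-12). Over 21 alternative settings that of Slpi ran from 1.91 to 4.07 and was called in all 21.

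Apart from Ngp, the largest fitted differences were in Retnlg, Asprv1 and Stfa2l1. Retnlg was at 71.7, 7.29 and 35.5 CPM in Tumor 1 arrays and at 1553, 1383 and 964 in Tumor 2 arrays, a log2 fold change of 6.0 ± 0.38 (adjusted p = 5.95e-14). It went from a gene of few cells to one of many: a Retnlg UMI was found in 1.02% to 2.48% of Tumor 1 neutrophils and in 40.7% to 59.4% of Tumor 2 neutrophils, and after thinning in 0.348% to 1.82% and 29.5% to 35.0%. Over all 4 Tumor 1 libraries 16 of 995 neutrophils held its 80 UMIs. Asprv1 was at 48.6, 43.8 and 8.35 CPM against 1163, 1076 and 988, a log2 fold change of 5.64 ± 0.31 (adjusted p = 2.99e-15). Stfa2l1 was at 10.2, 5.21 and 0 CPM against 197, 47.3 and 131, and its 9 UMIs in Tumor 1 arrays against 131 in Tumor 2 arrays gave a pooled ratio of 28.2 (exact 95% interval 14.4 to 63.0, counting error only). The array of Tumor 1 at 0 allows up to 6.26 CPM, the level of 3 UMIs.

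Ngp and Ltf, both made at the myelocyte stage, parted. Ngp was at 0, 0 and 2.09 CPM in Tumor 1 arrays, which is 1 UMI in all, and at 230, 213 and 13.9 CPM in Tumor 2 arrays, which is 76 UMIs. The pooled ratio was 147 with an exact 95% interval of 25.6 to 5888, counting error only. Of the 76 UMIs 61 lay in 2 cells, 44 in 1 cell of the first array and 17 in 1 of the second, without which these arrays were at 24.0 and 12.0 CPM. Outside those 2 cells 15 UMIs were left in the Tumor 2 arrays. Ltf was at 220, 207 and 96.0 CPM in Tumor 1 arrays and 84.4, 225 and 97.4 in Tumor 2 arrays, so the tumors overlapped. Its log2 fold change was 0.08 ± 0.31 (adjusted p = 0.847) and turned sign with library size alone (-0.64). No difference in the level of Ltf between the Whole Tumor groups was detected, with 331 UMIs in the Tumor 1 arrays and 100 in those of Tumor 2. The pooled ratio was 0.585 (exact 95% interval 0.463 to 0.734, counting error only), which gives each array weight by its depth and does not hold the spread between arrays.

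**Figure D2:**
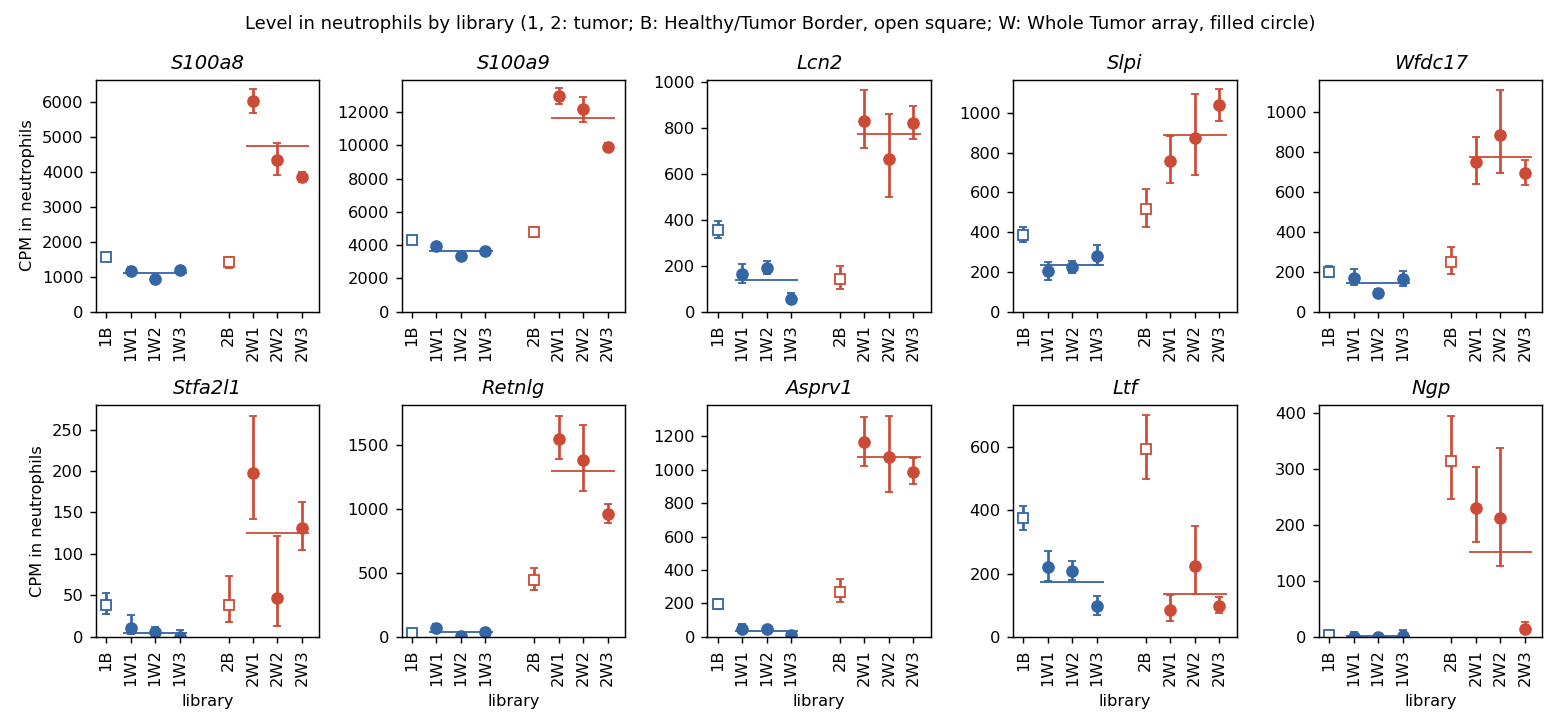
Level of each member in neutrophils, in CPM on a linear axis with its own scale per gene, with 1 point per library, exact 95% counting intervals as bars and the mean of the 3 arrays as a line. The 3 Whole Tumor arrays of Tumor 2 lie above those of Tumor 1 for every member but Ltf, and the border library of Tumor 2 lies below its arrays for 8 members.

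Other genes from the same pathways were read beside the members. These counts leave out the members and the gate genes and stand beside the 37.0% of all genes called. Of 4 other secondary granule genes 1 rose in Tumor 2, the granule glycoprotein gene Olfm4 (log2 1.15 ± 0.30, adjusted p = 0.00317). Camp, which encodes cathelicidin, had 0, 1 and 1 UMIs in Tumor 1 arrays and 0, 4 and 0 in Tumor 2 arrays, and did not pass (adjusted p = 0.172). Of the genes listed as tertiary, Mmp8 encodes the neutrophil collagenase, which is also stored in secondary granules. It was at 2.08 to 6.26 CPM in the Tumor 1 arrays and 175 to 333 CPM in those of Tumor 2. In the Tumor 1 arrays the level of 3 UMIs is 3.13 to 7.68 CPM, so the fitted fold and call of Mmp8 are not read. Mmp9 did not pass (-0.43, adjusted p = 0.100). Of 7 tested genes of mature neutrophils 6 rose, among them the histidine decarboxylase gene Hdc (3.55) and the formyl peptide receptor gene Fpr1 (3.14). The median log2 fold change was 1.09 over these secondary granule genes and 2.85 over the mature ones, beside -0.29 over all genes. The stefin Gm5483 and 3 of 4 other S100 genes rose, S100a6 by 2.71 ± 0.27 and S100a4 by 3.06 ± 0.70. The only primary granule gene tested, Prtn3 (proteinase 3), had 17, 22 and 9 UMIs in the Tumor 1 arrays against 1, 0 and 0 in those of Tumor 2.

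The factor genes of granule formation did not move as a group: of 5 tested, Cebpb (2.46) and Spi1 (1.07), which encodes PU.1, rose. C/EBP-epsilon itself is the product of Cebpe, which had 3, 22 and 21 UMIs in the Tumor 1 arrays and 0 in each of the Tumor 2 arrays. Tlr4, a receptor of calprotectin, was at -0.07 ± 0.22 (adjusted p = 0.837). Neutrophil markers outside the gate and the members moved with them: of 8 tested 6 were called higher in Tumor 2 (median log2 2.99). Mmp8, whose fold and call are not read, is among the 6 and enters this median. Satellite-rich transcripts and genes per cell differed as well. Of 3 such transcripts 2 were called higher in Tumor 2 (median log2 1.11). Median genes per neutrophil were 968 to 1077 in the Tumor 1 arrays. They were 734, 307 and 752 in those of Tumor 2, the 307 at a median depth of 616 UMIs. The borders of Tumor 1 and Tumor 2 were at 736 and 728 genes. Markers of other cells moved between the tumors too. Of 8 macrophage and monocyte markers 4 were higher and 2 lower in Tumor 2 neutrophils, with the list's sum at 16.03 to 41.9 of 10000 UMIs in Tumor 1 arrays and 8.28 to 26.9 in Tumor 2 arrays. The epithelial markers summed to 0.939 to 3.52 and 0.118 to 0.328. With neutrophils carrying a macrophage gene left out, 8 members besides Ngp were called higher in Tumor 2, where 42.0% of the 4419 genes tested were called. Stfa2l1, whose call is not counted, is among these 8. Scaling bore on the totals: with library size alone the median of all genes was -1.03 and 705 genes were called higher against 3450 lower, and these 8 members were above zero with log2 fold changes from 1.66 (S100a9) to 5.30 (Retnlg).

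The border comparison asked whether neutrophils from the photoactivated edge of the tumor differed from those of the whole, and the members went opposite ways in the 2 tumors. In Tumor 1 the border library lay above all 3 arrays for 9 members, of which Ngp had only 3 UMIs and cannot be read, and within the range of the arrays for Retnlg. Lying above all 3 was an order that 12.2% of the 6951 genes tested had, while 63.4% of them lay below all 3 arrays. There 8 members were called higher, where 8.92% of these genes were called (469 higher, 151 lower). With cells of at least 500 genes 4 were called (Lcn2, Stfa2l1, Asprv1 and Ltf), beside 6.93% of genes. With library size alone 4 were called, among 183 genes called higher and 973 lower around a median of -0.66. In Tumor 2 the border library lay below all 3 arrays for 8 members and above them for Ltf and Ngp, beside 16.5% of the tested genes below and 48.9% above. The border lay above in Tumor 1 and below in Tumor 2 for 7 members and for 3.73% of the tested genes. In Tumor 2, 8 members were called lower and Ltf higher, where 5.80% of genes were called (155 higher, 248 lower). With cells of at least 500 genes 4 were called lower (Lcn2, Wfdc17, Stfa2l1 and Asprv1) and Ltf higher, beside 2.85% of genes, and the balance over all genes turned to 115 higher and 84 lower. With library size alone 6 were called lower, among 450 genes higher and 125 lower around a median of 0.44. The median log2 fold change of the members was 1.48 in Tumor 1 and -1.91 in Tumor 2, beside -0.08 and 0.06 over all genes. Each border group is a single library, taken in the fit to vary as the arrays do. Stfa2l1, counted among the calls in Tumor 1, had few UMIs in the arrays of that tumor. The scaling factors of the fit (TMM) were 0.87 at the Tumor 1 border and 1.29 to 1.31 in its arrays. They were 1.01 at the Tumor 2 border and 0.76 to 0.89 in its arrays. The fitted changes below hold this scaling, which the CPM do not.

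Apart from Stfa2l1 and Ngp, which had few UMIs in the arrays, the largest rise at the Tumor 1 border was in Asprv1. Asprv1 was at 194 CPM at the border and 8.35 to 48.6 in the arrays, higher by 3.05 ± 0.36 (adjusted p = 3.83e-07). Stfa2l1 was at 38.3 CPM and 0 to 10.2, with 39 UMIs at the border and 9 in the arrays. Its fitted change of 3.45 ± 0.63 (adjusted p = 0.000322) rests on those few array UMIs, so its size is not read. Lcn2 was at 356 CPM and 54.2 to 190, higher by 1.94 ± 0.34 (adjusted p = 0.00021). These 3 border levels lay above every array. Epithelial markers, from the class richest in Lcn2, summed to 3.80 of 10000 UMIs in these border neutrophils and to 221 in surfactant-high epithelial cells. Ltf, at 375 CPM and 96.0 to 220, was higher by 1.66 ± 0.32 (adjusted p = 0.000575), and Slpi, at 387 and 202 to 282, by 1.29 ± 0.27 (adjusted p = 0.00161). In 19 alternative settings the change of Slpi ran from 0.71 to 2.62 and was called in 17 (adjusted p up to 0.0579).

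The calprotectin genes and Wfdc17 differed less. The border CPM was 1.44 times the array mean for S100a8, 1.18 times for S100a9 and 1.40 times for Wfdc17. Their fitted log2 fold changes are larger because they also hold the scaling factors. Over 19 alternative settings the log2 fold change of S100a9 ran from 0.23 to 0.90. S100a8 was at 1565 CPM at the Tumor 1 border and 916 to 1183 in the arrays, higher by 1.10 ± 0.27 (adjusted p = 0.00587), and this call held in 15 of 19 alternative settings (adjusted p up to 0.336). S100a9 was at 4319 CPM against 3358 to 3940, higher by 0.81 ± 0.24 (adjusted p = 0.0245), a call that held in 10 of 19 alternative settings (adjusted p up to 0.612) and was lost without the second array (adjusted p = 0.0637) or the third (0.0709). Wfdc17 was at 197 CPM against 92.7 to 169, higher by 1.09 ± 0.30 (adjusted p = 0.0174), and this held in 15 of 19 settings (up to 0.213) and was lost without the second array (0.0919). Retnlg, at 27.5 CPM, lay among the arrays (0.35 ± 0.58, adjusted p = 0.789), with a negative sign without the second array (-0.37) and with library size alone (-0.22), and Ngp had 3 UMIs at the border and 1 in the arrays (adjusted p = 0.525).

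In Tumor 2 most members were lower at the border. S100a8 was at 1405 CPM at the border and 3842 to 6014 in the arrays, a log2 fold change of -2.09 ± 0.32 (adjusted p = 0.00023). S100a9 was at 4785 CPM against 9918 to 12952 (-1.62 ± 0.28, adjusted p = 0.000546), and Lcn2 at 142 against 662 to 830 (-2.81 ± 0.47, adjusted p = 0.000456). Asprv1 was at 271 CPM against 988 to 1163 (-2.33 ± 0.41, adjusted p = 0.000684). No border value of these 4 genes reached its arrays. Wfdc17, at 249 CPM against 696 to 887, had a log2 fold change of -1.96 ± 0.36 (adjusted p = 0.00112), Retnlg, at 447 against 964 to 1553, of -1.86 ± 0.46 (0.0128) and Slpi, at 515 against 760 to 1039, of -1.14 ± 0.32 (0.0272). Stfa2l1, at 38.7 CPM against 47.3 to 197, had the weakest call (-2.19 ± 0.64, adjusted p = 0.0383), which was lost without the first array (0.0913). Of 19 alternative settings the call held in 14 for Stfa2l1 (adjusted p up to 0.137), in 15 for Slpi (up to 0.244), in 17 for Retnlg (up to 0.373) and in 18 each for S100a8 and S100a9 (up to 0.136 and 0.355).

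Ltf and Ngp ran the other way at the Tumor 2 border. Ltf was at 593 CPM there, above the 84.4 to 225 of the arrays, and was called higher (2.02 ± 0.37, adjusted p = 0.00124). Ngp was at 314 CPM against 13.9 to 230 and did not pass (1.05 ± 0.62, adjusted p = 0.359), though it did in 2 of 19 alternative settings, without the first array (2.21, adjusted p = 0.0343) and without the neutrophils that also passed another class's gate (4.24, adjusted p = 4.55e-15). Both rested on few cells. Of the 138 Ltf UMIs at this border 97 lay in 1 cell, which also held 71 of the 73 Ngp UMIs. Without the 3 neutrophils that had 5 or more Ngp UMIs, the Ltf fold change was 0.77 (adjusted p = 0.339) and that of Ngp was -1.30.

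The difference between the 2 border effects was tested directly, as the effect in Tumor 2 minus that in Tumor 1. It was called for 7 members, all lower in Tumor 2, where 9.77% of genes were called (232 higher, 447 lower). With cells of at least 500 genes 6 were called, beside 5.66% of genes, and S100a9 was not (adjusted p = 0.209), its only loss in 19 alternative settings. The difference was -5.64 ± 0.90 for Stfa2l1 (9 UMIs in the Tumor 1 arrays), -5.38 ± 0.56 for Asprv1 and -4.75 ± 0.59 for Lcn2 on the log2 scale. Retnlg just missed (-2.21, adjusted p = 0.0523) and was called in 6 of 19 alternative settings (adjusted p up to 0.574). Among these 6 were the fits without the first or the third array of Tumor 1 (adjusted p = 0.000753 and 0.0334) or the third of Tumor 2 (0.00119). Ltf, higher at both borders, gave 0.35 (adjusted p = 0.737) and was called in 1 of 19 alternative settings (0.0358). Ngp gave -1.40 (0.702). With library size alone the split over all genes turned, to 1186 higher and 181 lower around a median of 1.08, and with RLE factors it was 320 and 402; 7 members were called lower with library size alone.

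**Figure D3:**
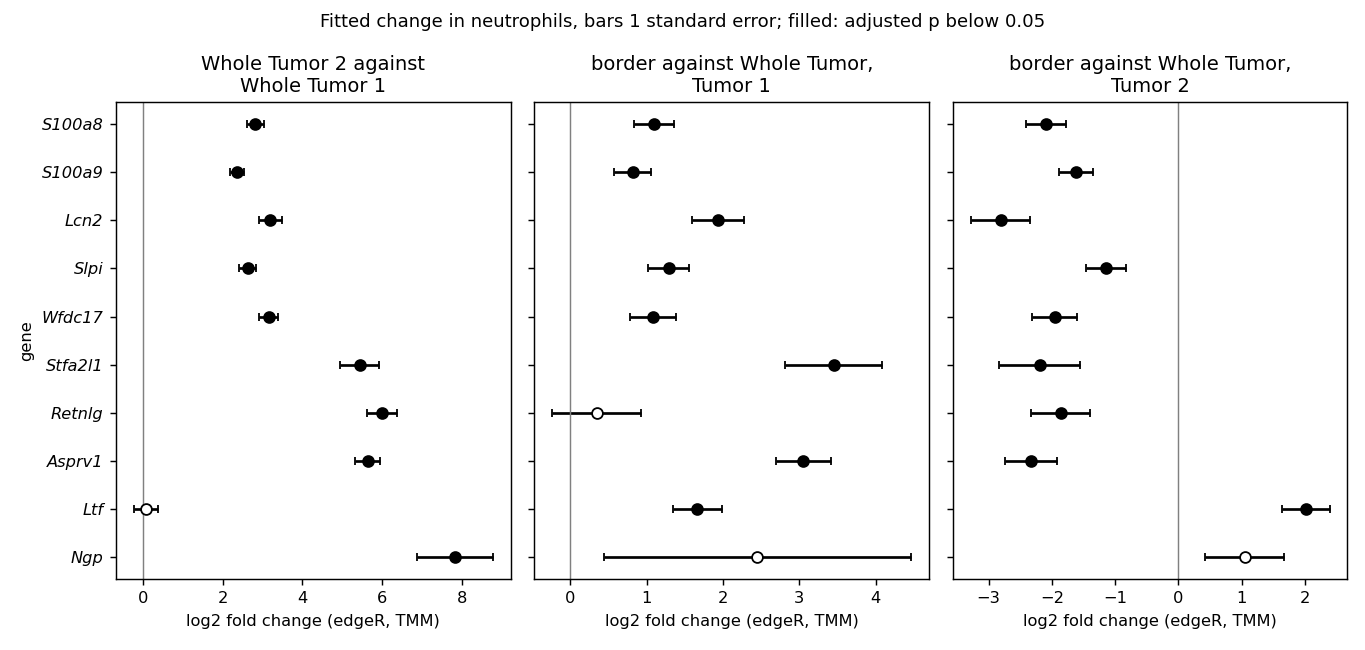
Log2 fold change with its SE for each member in neutrophils, for Whole Tumor 2 against Whole Tumor 1 and for border against Whole Tumor in each tumor. Filled points have adjusted p below 0.05, which for Ngp and Stfa2l1 between Whole Tumor groups is not counted as a call. Differences between Whole Tumor groups lie above zero for 9 members and near zero for Ltf, and the border effects lie on opposite sides of zero in Tumor 1 and Tumor 2 for 8 members, of which Retnlg turns sign in Tumor 1 with library size alone.

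The same lists, again without members and gate genes, were read at the borders beside the 8.92% and 5.80% of all genes called. In Tumor 1, of 4 secondary granule genes Olfm4 was higher (1.27, adjusted p = 0.0163) and Chi3l3 lower (-4.39, 0.00175), and the stefin Gm5483 was higher by 1.22 (0.00387). Of 5 tested factor genes of granule formation 1 was called higher there and 0 lower. In Tumor 2, 3 of 7 genes of mature neutrophils were lower, among them Hdc (-1.67) and the activating receptor gene Trem1 (-0.94), Olfm4 was lower (-2.12, 0.0193) and Cebpb and Spi1 were lower. Macrophage genes moved at the Tumor 1 border, where 4 of 8 markers were lower and the list summed to 5.50 of 10000 UMIs against 16.03 to 41.9 in the arrays. At the Tumor 2 border the list summed to 31.2 against 8.28 to 26.9, and edgeR called 0 of 8 markers (4 at an unadjusted p under 0.05, median log2 0.34). Of 8 neutrophil markers outside the gate and the members 3 were lower at the Tumor 2 border (median -0.96), and the list summed to 51.0 of 10000 UMIs against 73.6 to 80.3. At the Tumor 1 border, where 8 members were called higher, edgeR called 0 of these 8 (3 at an unadjusted p under 0.05, median 0.63), and their sum of 25.7 lay below the 28.5 to 36.0 of the arrays. Epithelial markers summed to 0.939 to 3.52 in the Tumor 1 arrays, below the border's value, and Sftpc and Sftpb were called higher. With neutrophils carrying a macrophage gene left out, 6 members were called higher in Tumor 1, beside 4.07% of the genes tested, and 6 lower in Tumor 2, beside 4.39%. The receptor gene Lrp1, also a macrophage gene, was lower at the Tumor 1 border (-1.26) and higher at that of Tumor 2 (1.27). The part of other cells' RNA in these values was not tested.

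Neutrophils varied widely among themselves in the members they carried. S100a9 was spread over many cells: its 22227 UMIs lay in 1079 of 1544 neutrophils, and the 100 richest cells held 41.6% of them. S100a8 was next, with 845 positive cells and 48.1% of UMIs in the top 100. Ngp was the opposite extreme, with 153 UMIs in 23 cells, 75.2% of them in 2 cells, and 19 cells with a single UMI. Ltf had 951 UMIs in 228 cells, and its top 5 cells held 26.1%. Over the members other than Ngp the top 5 cells held 4.58% (S100a9) to 26.1% (Ltf).

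**Figure D4:**
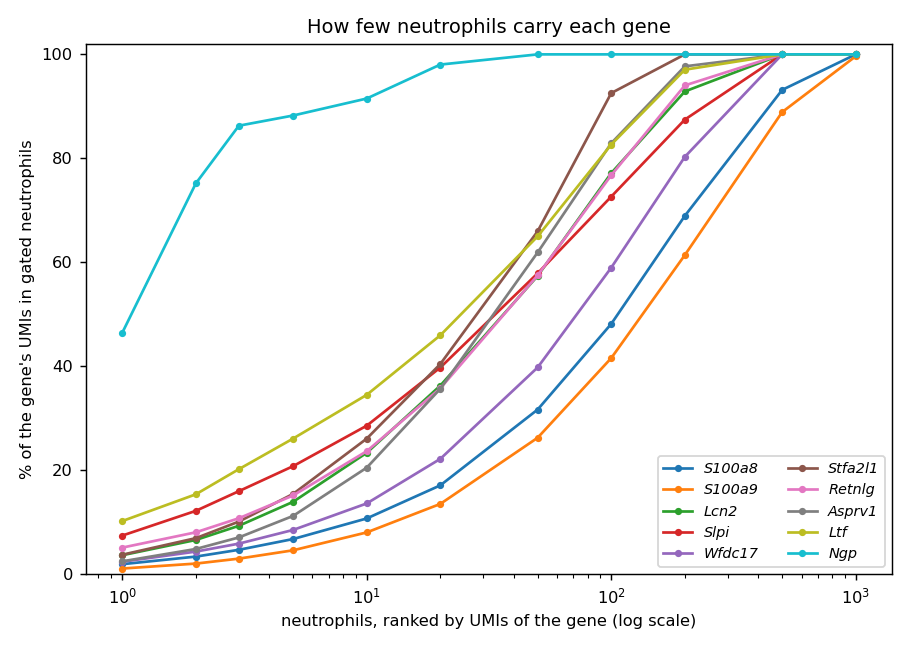
Cumulative percentage of each member's UMIs (y axis) held by the richest neutrophils, ranked per gene on a log axis (x axis), over the 1544 neutrophils. Ngp stands apart, with 88.2% of its UMIs in 5 cells, while S100a9 has 4.58% in its top 5 cells.

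The Ngp-rich cells carried several granule genes at once. The richest neutrophil, from the Tumor 2 border, had 71 Ngp, 97 Ltf, 25 Camp and 37 Retnlg UMIs among 2016. A cell from the first Tumor 2 array had 44 Ngp and 6 Ltf UMIs with 238 of S100a9 and 64 of Retnlg, and one from the second array had 17 Ngp, 14 Ltf and 4 Camp. All 3 cells thus held Ngp, Ltf and Retnlg together. Outside the gate, a single cell of the first Tumor 2 array with 78 Ngp, 77 Ltf, 39 Camp, 40 Lcn2 and 144 S100a9 UMIs fell into the Chi3l3/Ear class, for its 8 Chi3l3 UMIs, and had 1 Csf3r UMI. These cells were chosen after their values were seen.

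Most Ltf-positive neutrophils held no Ngp. In Tumor 1, 166 neutrophils held 713 Ltf UMIs with no Ngp UMI, and the 4 Ngp UMIs lay in 4 other cells. In those 166 cells Camp had 1 UMI, the gate gene Cxcr2 was at 274 CPM and found in 31.9% of cells, and S100a9 was at 4882 CPM. In Tumor 2, 57 neutrophils held Ltf without Ngp and had 0 Camp UMIs, and 5 held both and had Camp at 2323 CPM, Retnlg at 11696 CPM and S100a9 at 38773 CPM. The 3 Ngp-rich neutrophils are among these 5 and held all 29 Camp, 125 of the 146 Retnlg and 349 of the 484 S100a9 UMIs. One of the 3 held 238 of these S100a9 UMIs, and the richest in Ltf and Ngp held 4. Asprv1 was at 160 CPM in the 5 cells and 1253 CPM in the 57 with Ltf alone.

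Co-detection was used as a sign of maturity stage. For each pair of members the odds that a neutrophil with 1 gene also had the other were compared with those of a neutrophil without it, within strata of library and depth; the resulting odds ratios are descriptions, since the cells of a library share its depth and free RNA. Of 45 pairs 44 gave a value, 43 of these were above 1 and 8 above 3, with a median of 1.98. After thinning to 500 UMIs, 40 of 45 were above 1, with a median of 1.77. S100a8 and S100a9 were tightly joined: 790 cells had both, S100a9 was found in 93.5% of S100a8-positive and 41.3% of S100a8-negative neutrophils, and the odds ratio was 17.2 (12.2 after thinning) with the same direction in 8 of 8 libraries. Stfa2l1 marked cells with S100a9 in 113 of 114 cases (odds ratio 29.0, and 11.5 after thinning).

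Retnlg had higher odds ratios with S100a8, S100a9 and Ngp than with Ltf. Its odds ratio was 6.70 with S100a9 and 5.05 with S100a8, and 8.80 with Ngp, where 18 of 23 Ngp-positive cells had it; after thinning these were 4.14, 3.37 and 2.72, the last on 5 shared cells. S100a9 was found in all 23. Retnlg with Ltf was at 0.72, the only pair below 1, and 0.609 after thinning on 4 shared cells; Ltf was the more frequent in Retnlg-positive cells in 3 of the 5 libraries compared, so no direction is read. Ltf and Ngp shared 5 cells, with an odds ratio of 1.61 that became 13.3 after thinning on 3 shared cells, too few to read. Slpi with Wfdc17 had an odds ratio of 2.34, and 1.24 after thinning.

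Stage genes outside the members were read against the members in the same way. Camp was found in 5 neutrophils, 3 of which had Ngp and 3 Ltf. Mmp8 was found in 26.5% of Retnlg-positive and 2.36% of Retnlg-negative cells (odds ratio 4.80) and in 12 of 23 Ngp-positive cells (7.70). The stefin Gm5483 went with Stfa2l1 (6.71). Chi3l3, which alveolar macrophages also express, had an odds ratio of 0.27 with S100a8 and 0.22 with Retnlg, which became 0.61 and 0.81 after thinning, the latter on 4 shared cells. With Slpi and Wfdc17 its odds ratios were 4.95 and 6.19 in Tumor 1 and 0.92 and 0.93 in Tumor 2. Of the primary granule genes, made in promyelocytes, Elane, Ctsg and Mpo had 1, 1 and 6 UMIs over all neutrophils, and Prtn3 had 57 in 2.53% of them.

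**Figure D5:**
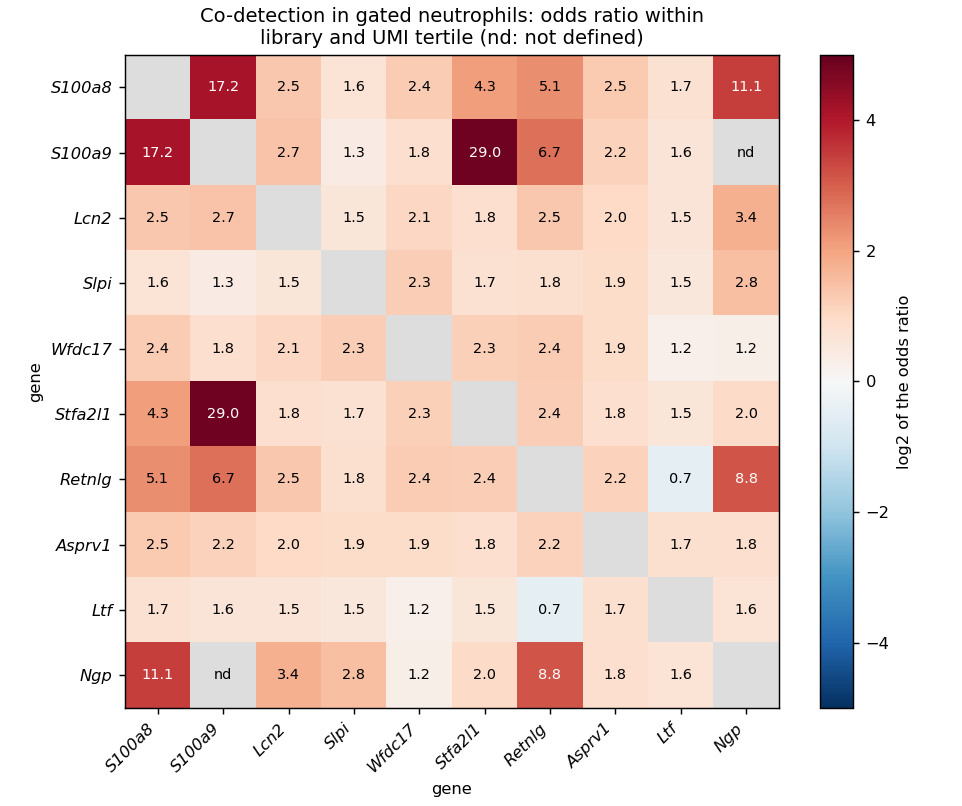
Stratified odds ratio of co-detection for each pair of members in neutrophils, on a color scale of log2 odds ratios, with the odds ratio printed in each cell and nd where it is not defined. The S100a8 and S100a9 pair (17.2) and Stfa2l1 with S100a9 (29.0) stand out, and Retnlg with Ltf (0.72) is the only pair below 1.

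The genes whose levels followed each member most closely over 20 class-by-tumor profiles were ranked among 10400 genes by Pearson correlation of log2 CPM; classes of 1 tumor share libraries, so r is given as a description. S100a8 and S100a9 were each other's closest gene (r = 0.954), followed by Olfm4 and Slfn4. Retnlg and Stfa2l1 were also each other's closest (0.956), with Trim30b near both (0.950 with Retnlg) and Asprv1 close to Retnlg (0.924). Ngp was closest to Camp (0.952), with 149 of the 245 Ngp and 64 of the 83 Camp UMIs of all cells in 2 cells, and Ltf to Olfm4 (0.924), whereas Lcn2 was closest to Kif23 (0.914). Wfdc17 was closest to the myeloid inhibitory receptor gene Pirb (0.945) and Slpi to Slc27a4 (0.857). Among neutrophils the genes with the highest odds ratio of co-detection were Pf4 for Slpi (8.89, 20 shared cells), C4b for Wfdc17 (7.65, 22 cells), Tmem71 for Retnlg (8.23), Mxd1 for Asprv1 (6.48) and Slc26a11 for Ltf (4.40).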

How the data were processed

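The members, gene lists and comparisons were chosen with earlier results of these data known. Seq-Well libraries of polyadenylated RNA were counted as UMIs. The authors demultiplexed with bcl2fastq 2.17.1.14, aligned to mm10 with STAR 2.5.2b by the Drop-seq protocol, filtered cells and deposited 1 table of raw UMI counts per library, and these counts were used as deposited. Barcodes per group equal the cell numbers the study states. Tumor numbers follow the labels; cells inside the tables are named with the opposite number. Cells with at least 200 genes were gated by marker UMIs, with no doublet caller, and 173 neutrophils that pass another gate were kept. Counts were summed per library and class and tested with edgeR 4.0.16 (R 4.3.3; quasi-likelihood test with TMM factors on genes kept by filterByExpr; p adjusted by Benjamini-Hochberg over all genes tested, threshold 0.05); 1 fit over the 8 libraries gave 4 residual degrees of freedom, a lone border library being assumed to vary like the arrays. Class comparisons used libraries with at least 10 cells in both classes and library as a block; a further class comparison is not reported here. Intervals are exact at 95% and, like the floor of 3 UMIs, cover counting error only. Thinned shares come from cells with at least 500 UMIs, each reduced to 500. Odds ratios are Mantel-Haenszel estimates over strata of library and UMI tertile. Likeness used log2(CPM + 10) and genes with at least 50 UMIs, naming the 3 closest genes of a member. Alternatives were other gates, cell filters, RLE factors, library size alone, no filter on low counts, DESeq2 1.42.0 and leaving out each array; those without primer-like barcodes, without cells holding a macrophage gene, without Ngp-rich cells, and with the arrays alone were added after seeing the data. The fits were tested on simulated counts with 200 genes changed 4-fold. They recovered 33.5% of these at the Tumor 1 border, 23% at the Tumor 2 border and 0.5% for the difference. For the Whole Tumor groups they recovered 65%, and 77.5% against C1q macrophages. A missing call at the borders or for the difference therefore says little.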

Additional observations from a re-analysis of the deposited data

Results flagged for a closer look

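For 7 members the effect of the border differed between the tumors by the test of the difference itself, the effect in Tumor 2 minus that in Tumor 1 in neutrophils, where 9.77% of the 6951 genes tested were called. On the log2 scale it was -3.19 for S100a8 (adjusted p = 2.79e-06), -2.43 for S100a9 (1.80e-05), -4.75 for Lcn2 (1.49e-06), -2.43 for Slpi (0.000156), -3.05 for Wfdc17 (3.24e-05), -5.64 for Stfa2l1 (5.14e-05) and -5.38 for Asprv1 (7.58e-08), by edgeR's quasi-likelihood test. In all 7 the border library lay above its 3 arrays in Tumor 1 and below its 3 arrays in Tumor 2, an order that 3.73% of the tested genes had. Each border effect rests on 1 library, and Stfa2l1 had only 9 UMIs in the Tumor 1 arrays. In 19 alternative settings each of the 7 was called except S100a9 with cells of at least 500 genes (adjusted p = 0.209). The macrophage and monocyte markers summed to 5.50 of 10000 UMIs at the border of Tumor 1 against 16.03 to 41.9 in its arrays, with 4 of 8 called lower. At the border of Tumor 2 they summed to 31.2 against 8.28 to 26.9, with 0 of 8 called (4 at an unadjusted p under 0.05). For the difference itself 3 of the 8 were called higher in Tumor 2 and 1 lower (median log2 2.15). Of 8 neutrophil markers outside the gate and the members 2 were called lower for the difference (median -1.43). With neutrophils carrying a macrophage gene left out, 7 members were called, beside 6.06% of 4419 genes (268).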

How the results depend on the processing

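Of 795 member values under alternative settings, 738 kept their direction and their side of the threshold, 36 lost the call, 9 gained it and 12 turned sign. With cells of at least 500 genes, 4 members in place of 8 were called higher at the Tumor 1 border. At the Tumor 2 border 4 in place of 8 were then called lower, and Ltf was called higher in both fits. With library size alone 4 were called at the Tumor 1 border. Leaving out 1 array at a time gave 6 to 8 members called higher at the Tumor 1 border and 7 to 8 called lower at that of Tumor 2. At the Tumor 2 border Ltf was called higher in each of these fits, and Ngp without the first Tumor 2 array. For the difference 7 to 8 members were called, and for the Whole Tumor groups 9 (Ngp among them, whose call is not counted). Stfa2l1 was among these 9 too, and its call is not counted either. The log2 fold change of Wfdc17 against C1q macrophages was 0.93 to 1.61. In the same fits Retnlg at the Tumor 1 border ran from -0.37 to 1.17 and Ltf between Whole Tumor groups from -0.19 to 0.30. The signs that turned were those of Retnlg at the Tumor 1 border (-0.22 with library size alone, -0.37 without the second array); Ngp at the Tumor 2 border (-1.30 without the Ngp-rich cells); Ltf (-0.90 without the Ngp-rich cells) and Ngp (2.04 without neutrophils of another gate) for the difference; and Ltf between Whole Tumor groups (-0.23 without neutrophils of another gate, -0.42 without cells holding a macrophage gene, -0.41 without Ngp-rich cells, -0.014 with RLE factors, -0.64 with library size alone, -0.19 without the third Tumor 1 array, -0.16 without the second Tumor 2 array). The cause was not tested. Genes called over the whole table also moved: DESeq2 called 298, 254, 353 and 1675 genes for the Tumor 1 border, the Tumor 2 border, the difference and the Whole Tumor groups, in place of 620, 403, 679 and 2571. Library size alone gave 1156 for the Tumor 1 border, 1367 for the difference and 4155 for the Whole Tumor groups. Without cells holding a macrophage gene there were 180, 194 and 268 calls for the borders and their difference. The replicate block of arrays by number left 9 members called between the Whole Tumor groups (Ngp and Stfa2l1 among them, whose calls are not counted) and 2162 genes. Deviations of same-numbered arrays correlated at -0.00, 0.04 and 0.05, so the numbers were not taken to pair. Depth limits Ngp and Stfa2l1 most, with 153 and 188 UMIs in all neutrophils.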
